A study of Mus musculus with 17 samples.

Results

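Noncoding host genes of small nucleolar RNAs (snoRNAs) were followed in RNA from ribosomes at the endoplasmic reticulum (ER) and in whole-cell RNA of mouse embryonic stem cells. The set held 10 genes of the 55416 listed in each count file: Gas5, Zfas1, Snhg1, Snhg3, Snhg4, Snhg5, Snhg6, Snhg8, Snhg12 and Epb41l4aos. The 10 genes were chosen by their role as noncoding snoRNA hosts, with earlier results of these libraries in view. Because those results were known, every count and median over the 10 genes is given as a description. The rule itself names no measured value that entered the choice. All 10 genes passed the filter on low counts in every fit.

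The cells were E14Tg2a.4 mouse embryonic stem cells in which Rpl31, a protein of the large ribosomal subunit, is tagged with FLAG-TEV-AviTag, and were kept in serum and leukemia inhibitory factor (LIF). The ALIBi system, which labels by proximity and was targeted here to the ER, biotinylated tagged ribosomes, which were purified from the lysate in the presence of cycloheximide. Ribosome-bound RNA at the ER and whole-cell RNA of the same lysate were sequenced after polyA selection. The groups were ER ribosome-bound RNA after Nmd3 siRNA (3 libraries), after Gnl3 siRNA (3) and after scramble siRNA (2, replicates 2 and 3), and whole-cell RNA after Nmd3 siRNA (3), Gnl3 siRNA (3) and scramble siRNA (3). All groups share the tagged Rpl31 and the ALIBi labelling. Nmd3 is an export adaptor of the large ribosomal subunit, and Gnl3 (nucleostemin) is a nucleolar GTPase of large subunit assembly.

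snoRNAs guide the modification and processing of ribosomal RNA in the nucleolus. In mammals most are cut from introns of a host transcript, and some hosts encode no known protein. The spliced host RNA can reach the cytoplasm, where ribosomes can read its short reading frames. Stop codons upstream of an exon junction make such RNAs known substrates of nonsense-mediated decay (NMD), and several host promoters carry a pyrimidine tract at the start site like that of ribosomal protein genes. Gas5, Zfas1, Snhg1, Snhg5 and Snhg6 host guides of the box C/D kind, which direct ribose methylation. Snhg3, Snhg4, Snhg8 and Epb41l4aos host guides of the box H/ACA kind, which direct pseudouridylation or, for those in Snhg3, take part in cutting the precursor RNA. Snhg12 hosts both kinds.

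Start-site windows are shown for the host genes in which the pyrimidine tract named above was found. RefSeq windows (build GRCm38.p6) were held for 7 of the 10 genes, and 5 of those 7 (71.4%) had a tract of at least 5 pyrimidines that begins with C within 10 bases of the start. The same search on the gene's own strand found the tract in 35 of 58 ribosomal protein genes (60.3%) and in 34.4% of 27025 genes with a window. The letters TATA stood between 50 and 10 bases before the start in 5 of the 7 host genes (71.4%), against 6 of 58 ribosomal protein genes (10.3%) and 9.5% of all genes. A match describes the letters only. Gas5 has a second annotated start with neither element, which is not shown. Each line runs 5′ to 3′ on the gene's own strand, from 60 bases before the annotated start to 50 bases from it. The tract and the TATA letters are in capitals.
Gas5, + strand, chr1:161035106-161035215: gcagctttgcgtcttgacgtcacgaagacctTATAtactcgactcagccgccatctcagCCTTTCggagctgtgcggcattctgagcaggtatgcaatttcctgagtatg
Snhg12, + strand, chr4:132308618-132308727: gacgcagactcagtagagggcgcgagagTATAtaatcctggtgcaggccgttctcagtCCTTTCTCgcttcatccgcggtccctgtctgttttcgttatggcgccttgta
Snhg8, - strand, chr3:123508287-123508396: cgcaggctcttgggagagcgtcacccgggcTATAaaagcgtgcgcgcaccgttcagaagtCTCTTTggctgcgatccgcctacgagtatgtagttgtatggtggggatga
Snhg5, - strand, chr9:88522848-88522957: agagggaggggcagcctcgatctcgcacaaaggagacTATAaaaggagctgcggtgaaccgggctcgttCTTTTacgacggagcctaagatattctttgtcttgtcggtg
Snhg3, - strand, chr4:132353637-132353746: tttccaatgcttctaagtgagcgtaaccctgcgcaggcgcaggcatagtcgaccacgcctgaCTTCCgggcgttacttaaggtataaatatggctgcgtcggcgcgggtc
The windows of Gas5, Snhg12, Snhg8 and Snhg5 hold both elements, and that of Snhg3 holds the tract only.

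The host transcripts had short reading frames. From the first ATG of 1 annotated transcript per gene (GENCODE M21), the frame ran 1 to 54 codons before a stop, with a median of 28.5 codons. The stop lay more than 50 bases before the last exon junction, the distance in use as a rule of thumb for NMD, in 7 of the 10 transcripts. For the longest frame of each transcript, of 35 to 79 codons, this held in 5 of the 10. For the first frame, the 3 others were Snhg3, whose stop lay past its last junction, Snhg4, whose stop lay 40 bases before it, and Snhg8, whose transcript has a single exon. The frames of 4 transcripts are given, with start and stop codons in capitals, to show what a ribosome would read before the stop.
Gas5, first ATG to its stop: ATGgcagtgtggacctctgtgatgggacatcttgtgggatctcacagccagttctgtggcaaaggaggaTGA
Zfas1, first ATG to its stop: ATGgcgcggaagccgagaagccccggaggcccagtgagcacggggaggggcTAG
Snhg5, first ATG to its stop: ATGaccaagTGA
Snhg8, first ATG to its stop: ATGTAG
The first frame of Gas5 has 23 codons and ends 315 bases before the last junction of a transcript of 12 exons. That of Zfas1 has 17 codons and ends 437 bases before the last junction, and that of Snhg5 has 3 codons and ends 536 bases before it. In Snhg8 the ATG is followed directly by a stop codon.

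**Figure D1:**
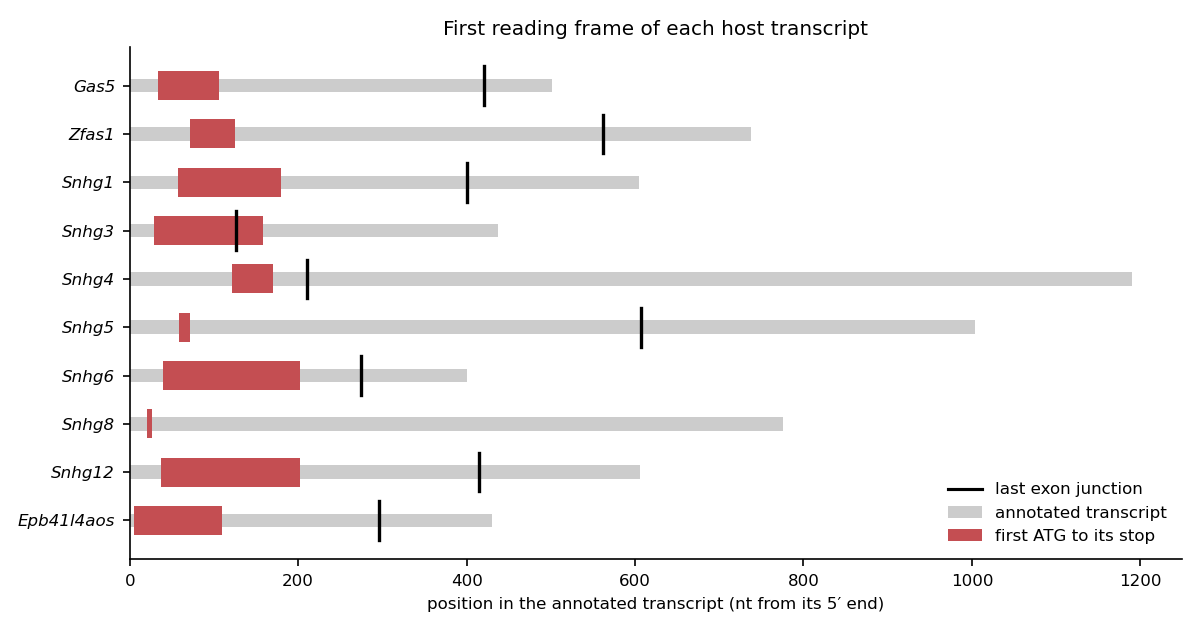
First reading frame of each host gene. Grey bars give the length of 1 annotated transcript in nt from its 5′ end, red bars the stretch from the first ATG to its stop, and black ticks the last exon junction, which the single-exon Snhg8 lacks and which lies more than 50 bases past the stop in 7 of the 10 transcripts.

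Libraries held 15.2 to 29.9 M gene counts. Nmd3 stood at 24.1 to 25.2 counts per M gene counts (CPM) in ER libraries after Nmd3 siRNA, against 120.0 to 123.7 CPM after scramble, and at 43.2 to 72.3 against 150.2 to 153.8 CPM in whole-cell RNA. Gnl3 stood at 26.9 to 31.6 CPM in ER libraries after Gnl3 siRNA, against 170.0 to 177.4 CPM after scramble, and at 54.2 to 88.2 against 256.0 to 272.0 CPM in whole-cell RNA. All 10 pluripotent stem cell markers were detected, with summed levels of 9240 to 10300 CPM in ER and 4380 to 10200 CPM in whole-cell libraries. Of 8 fibroblast and feeder markers 4 stayed under 1 CPM, and their sum was 34.3 to 42.0 CPM in ER and 10.7 to 19.4 CPM in whole-cell libraries. Of 7 primitive endoderm markers 2 stayed under 1 CPM, and their sum was 11.4 to 14.0 CPM in ER and 8.56 to 19.8 CPM in whole-cell libraries. The part of these markers in the results was not tested. Nmd3 whole-cell replicate 2 and Gnl3 whole-cell replicate 3 stood apart: their best correlations with another whole-cell library (log2 CPM across genes) were 0.919 and 0.927, against 0.986 or more for the others. Mitochondrial RNA took 0.769% and 6.14% of their counts, against 1.15% to 2.03% in the other whole-cell libraries. Results that use whole-cell RNA are therefore given with and without these 2 libraries.

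Per kb of the transcript used above, Snhg1, Gas5 and Snhg5 were the highest of the 10 genes on ER ribosomes after scramble siRNA, at 217, 198 and 183 CPM per kb. Zfas1 followed at 123 ± 6.68, Epb41l4aos at 106 ± 1.11, Snhg12 at 74.9 ± 8.59, Snhg6 at 68.8 ± 9.12, Snhg3 at 33.7 ± 1.51, Snhg8 at 31.9 ± 2.65 and Snhg4 at 7.83 ± 0.11 CPM per kb (SD, n = 2). The libraries of the neighbours Snhg12 and Snhg6, and of Snhg3 and Snhg8, overlapped, so their order does not exceed the spread. Whole-cell RNA after scramble siRNA gave the same order of the 10 genes, though the libraries overlapped between Zfas1 and Epb41l4aos, among Snhg12, Snhg6 and Snhg3, and between Snhg8 and Snhg4, with Snhg1 at 180 ± 3.81, Snhg3 at 59.7 ± 4.05 and Snhg4 at 22.1 ± 0.838 CPM per kb (SD, n = 3). The order depends on the length used: per kb of all annotated exons, Snhg5 and Epb41l4aos were highest on ER ribosomes, at 106 CPM per kb each, and Gas5 was sixth, while Snhg4 stayed lowest at 2.0. Together the 10 genes made up 597.3 ± 41.5 CPM on ER ribosomes after Nmd3 siRNA, 615.2 ± 14.1 CPM after Gnl3 siRNA (SD, n = 3 each) and 672.4 ± 14.5 CPM after scramble (SD, n = 2). Their whole-cell sum after scramble siRNA was 559.6 ± 20.2 CPM (SD, n = 3).

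**Figure D2:**
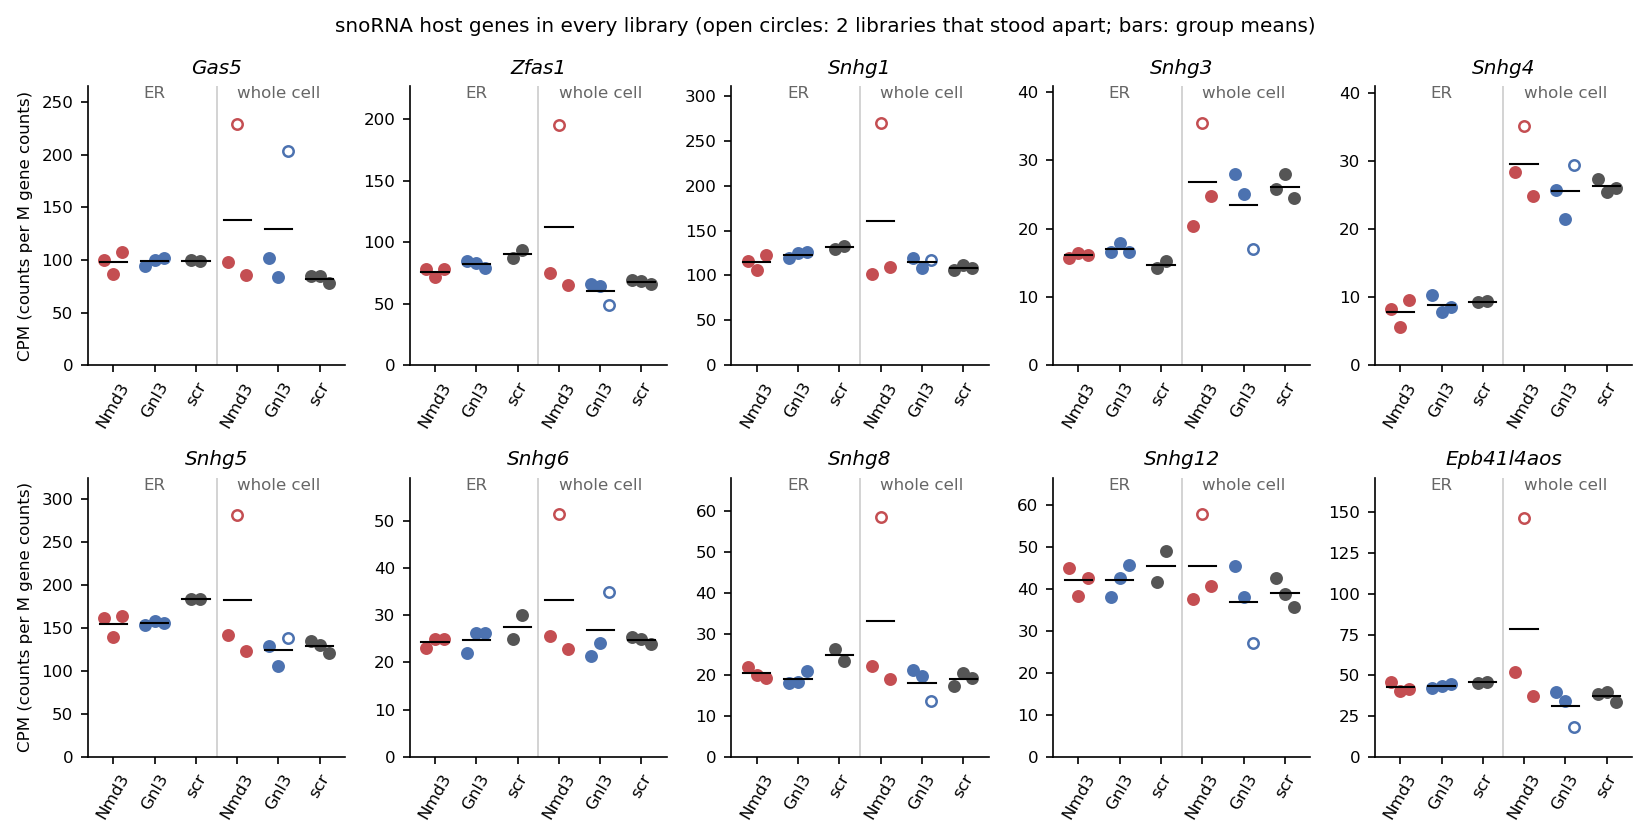
Level of each snoRNA host gene in every library, in CPM on a linear axis from 0. ER ribosome-bound groups are left of whole-cell groups, points are libraries, black bars group means and open circles the 2 whole-cell libraries that stood apart. Nmd3 whole-cell replicate 2 is the highest library for all 10 genes.

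Setting RNA on ER ribosomes against whole-cell RNA asks which transcripts are on ribosomes at the ER relative to their share of the cell. The libraries hold no RNA from ribosomes of the whole cell and none from a purification without labelling. Ribosome binding anywhere in the cell, binding at the ER and RNA carried along in purification therefore cannot be told apart in this ratio. After scramble siRNA, the log2 fold changes of Snhg4 and Snhg3 were -1.52 and -0.86, and those of the 8 other host genes lay between 0.13 and 0.49. In the edgeR quasi-likelihood fit of all 17 libraries, 0 of 10 genes were called higher and 1 lower, where 5.14% of 18525 genes were called higher and 7.56% lower. Without the 2 libraries that stood apart, which belong to neither scramble group but share the estimate of spread, 6 were called higher and 2 lower, where 25.1% of 18271 genes were called higher and 25.3% lower. When cultures entered the fit as blocks, 0 were called in the 17 libraries, where 2.08% of all genes were called in either direction. Without the 2 libraries this fit called 7 higher and 2 lower, where 47.3% of all genes were called. The median over the 10 genes was 0.24 on the log2 scale with all 17 libraries and 0.25 without the 2, against 0.02 over all genes tested in each fit.

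Snhg4, a host of H/ACA guides, was the member furthest below its whole-cell level. It had 9.23 and 9.41 CPM on ER ribosomes after scramble siRNA, against 27.4, 25.4 and 26.1 CPM in whole-cell RNA. All ER libraries lay below all whole-cell libraries. Here and below, overlap of libraries is a description, as the share of all genes without overlap was not counted. The log2 fold change of Snhg4 was -1.52 ± 0.28 (SE, adjusted p = 0.00266) with 17 libraries and -1.52 ± 0.14 (adjusted p = 3.07e-10) with 15. It was not called with all 17 libraries when cultures entered as blocks. Snhg3, host of the 2 Snora73 genes, had 14.3 and 15.2 CPM on ER ribosomes, against 25.8, 28.0 and 24.5 CPM in whole-cell RNA, again without overlap. Its log2 fold change was -0.86 ± 0.28 (adjusted p = 0.0606) with 17 libraries and -0.85 ± 0.11 (adjusted p = 2.29e-08) with 15. Of the exonic bases of Snhg3, 71.5% lie opposite Gm17300. The log2 fold change of Gm17300 was -0.77 ± 0.21 (adjusted p = 0.0266) with 17 libraries and -0.77 ± 0.09 (adjusted p = 1.77e-09) with 15. The strand setting used in counting is not given in the sources used here. Reads in the bases shared by the 2 genes may have been counted for either gene or left uncounted. Which of these holds was not tested. A further 13.7% overlap Rcc1 on the same strand. The log2 fold change of Rcc1 was -0.17 ± 0.33 (adjusted p = 0.8) with 17 libraries and -0.16 ± 0.06 (adjusted p = 0.0245) with 15. For a level in either fraction, fewer cells with a transcript and less of it per cell cannot be told apart in bulk RNA. The fractions of a replicate come from the same lysate and so from the same cells.

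Snhg5, a host of box C/D guides, had the highest ER to whole-cell ratio of the 10, with 183.7 and 183.9 CPM against 134.7, 129.8 and 120.7 CPM in whole-cell RNA. Its log2 fold change was 0.49 ± 0.34 (adjusted p = 0.405) with 17 libraries and 0.49 ± 0.07 (adjusted p = 5.58e-07) with 15. Zfas1 had 87.2 and 94.1 CPM on ER ribosomes, against 69.1, 68.2 and 66.4 CPM. Its log2 fold change in the 15 libraries was 0.39 ± 0.06 (adjusted p = 2.98e-06). Snhg8 had 26.2 and 23.3 CPM, against 17.4, 20.5 and 19.2 CPM, a log2 fold change of 0.36 ± 0.10 (adjusted p = 0.00398). In all 3 genes the ER libraries lay above every whole-cell scramble library. The same held for Epb41l4aos, Gas5 and Snhg1, whose log2 fold changes were 0.27 ± 0.10, 0.25 ± 0.08 and 0.25 ± 0.06 (adjusted p = 0.0188, 0.00738 and 0.00121) in the 15 libraries. The share of all genes with ER libraries above every whole-cell scramble library was not counted. Snhg12 and Snhg6 overlapped between fractions, with log2 fold changes of 0.20 ± 0.09 (adjusted p = 0.0797) and 0.13 ± 0.10 (adjusted p = 0.275). In the 17-library fit none of these 8 genes was called, and their SEs were 0.26 to 0.48.

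**Figure D3:**
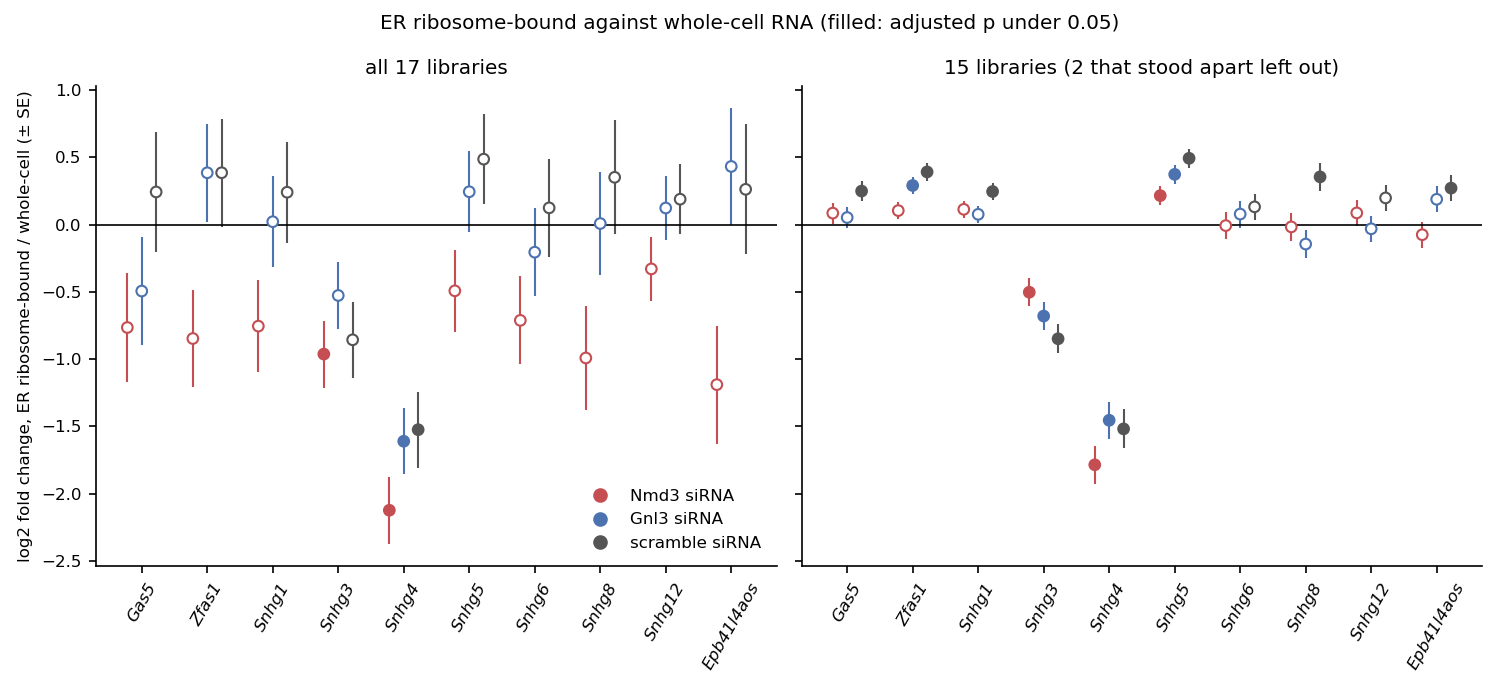
Log2 fold change of ER ribosome-bound over whole-cell RNA (± SE) for each host gene after Nmd3, Gnl3 and scramble siRNA, with all 17 libraries on the left and 15 on the right. Filled points passed an adjusted p of 0.05. Snhg3 and Snhg4 are below 0 after all 3 siRNAs in both panels, and all 10 Nmd3 points are below 0 on the left but 5 of 10 on the right.

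Set beside other genes after scramble siRNA, the median of the host genes (0.25 in the 15 libraries) lay between those of 79 cytosolic ribosomal protein genes (0.45, with 71 higher and 1 lower) and of 51 protein-coding snoRNA hosts (0.05, with 22 higher and 21 lower), lists that share 18 genes. Of 13 other noncoding snoRNA hosts, 12 were tested and had a median of -0.26, with 2 higher (Snhg15 and Snhg16) and 6 lower. The lowest of those were Rian, Snhg14 and Snhg11, at -2.98 ± 0.08, -2.03 ± 0.13 and -1.70 ± 0.15 (adjusted p = 1.11e-24, 1.03e-12 and 4.1e-12), so Snhg4 and Snhg3 lay within the range of these hosts. Of 17 nuclear-retained long noncoding RNAs, 1 was higher and 10 lower, with a median of -0.70. Of 18 NMD factors 3 were higher and 11 lower (median -0.30), of 9 exon junction complex genes 5 higher and 1 lower (0.25), of 24 mRNAs with reported NMD-sensitive transcripts 11 higher and 4 lower (0.14), and of 17 snoRNP protein genes 7 higher and 5 lower (0.04). In the 17-library fit, none of these lists had a gene called higher, and 6 other noncoding hosts, 4 protein-coding hosts, 4 nuclear-retained RNAs and 4 NMD factors were called lower. By exonic length, all genes tested had medians of 0.21 up to 1 kb, 0.26 from 1 to 2 kb, 0.16 from 2 to 4 kb and -0.19 above 4 kb in the 15 libraries. Snhg4 is the only host gene of the 10 above 4 kb of exonic sequence, at 4666 bases, while Snhg3 has 986. These lengths and the classes take in all annotated exons of a gene. The single transcripts used for the reading frames have 1190 bases for Snhg4 and 437 for Snhg3.

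**Figure D4:**
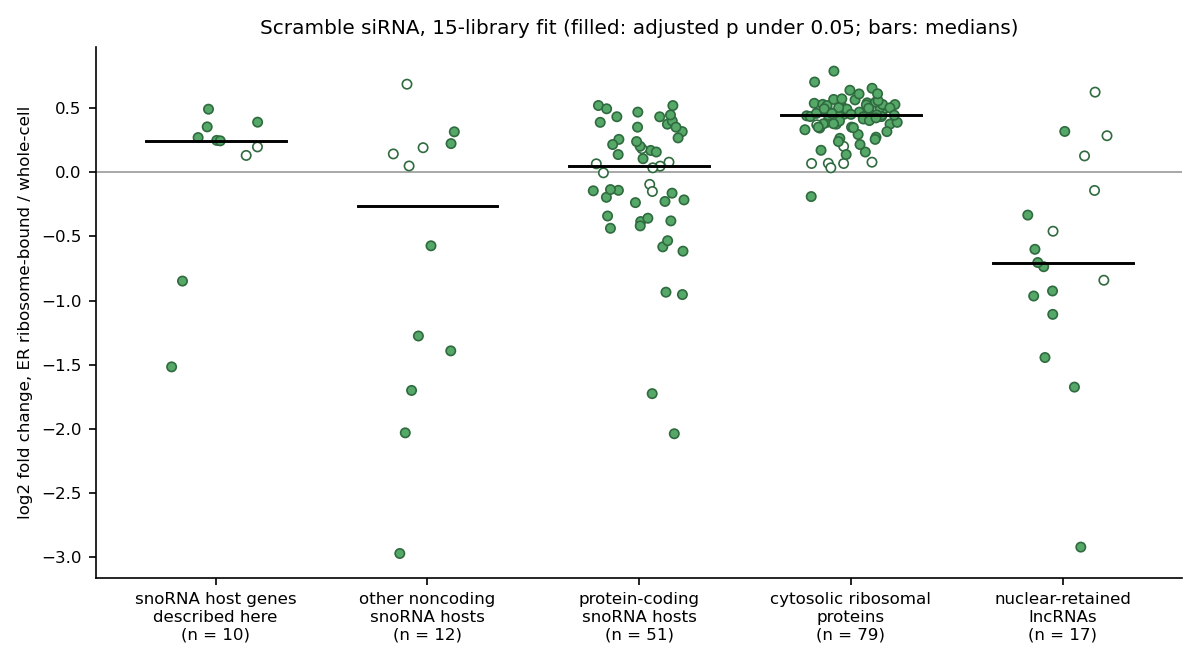
Log2 fold change of ER ribosome-bound over whole-cell RNA after scramble siRNA for each gene of 5 lists, in the fit of 15 libraries. Filled points passed an adjusted p of 0.05 and bars are medians, which were 0.25 for the 10 host genes and -0.70 for the nuclear-retained RNAs. Snhg3 and Snhg4 are the 2 lowest points of the first column.

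The fold changes of Snhg4 and Snhg3 were also below 0 after both knockdowns, and Snhg4 was called in each. After Nmd3 siRNA, Snhg4 had 8.29, 5.56 and 9.59 CPM on ER ribosomes, against 28.4, 35.2 and 24.9 CPM in whole-cell RNA, a log2 fold change of -2.12 ± 0.25 (adjusted p = 7.87e-05) with 17 libraries and -1.78 ± 0.14 (adjusted p = 5.16e-12) with 15. After Gnl3 siRNA it had 10.3, 7.79 and 8.51 CPM, against 25.8, 21.4 and 29.4 CPM, a log2 fold change of -1.61 ± 0.25 (adjusted p = 0.000295) with 17 libraries and -1.45 ± 0.14 (adjusted p = 3.15e-10) with 15. The fractions did not overlap after either knockdown. Snhg3 after Nmd3 siRNA had 15.7, 16.4 and 16.1 CPM, against 20.4, 35.4 and 24.8 CPM, a log2 fold change of -0.96 ± 0.25 (adjusted p = 0.016) with 17 libraries and -0.50 ± 0.11 (adjusted p = 0.000133) with 15. After Gnl3 siRNA it had 16.6, 17.9 and 16.5 CPM, against 28.0, 25.1 and 17.03 CPM, the last within the ER range and from the replicate that stood apart, a log2 fold change of -0.53 ± 0.25 (adjusted p = 0.138) with 17 libraries and -0.68 ± 0.10 (adjusted p = 7.51e-07) with 15.

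The 8 other host genes depended on the libraries used. After Nmd3 siRNA all 10 fold changes were below 0 with 17 libraries, and 2 genes were called lower and 0 higher, where 7.5% of all genes were lower and 7.71% higher. With 15 libraries only Snhg5 was called higher (0.22 ± 0.07, adjusted p = 0.0123) and Snhg3 and Snhg4 lower, where 24.5% were higher and 25.6% lower. With cultures as blocks, 1 host gene was called in 17 libraries, where 7.13% of all genes were, and 4 in 15, where 46.8% were. After Gnl3 siRNA only Snhg4 was called with 17 libraries, where 10.3% were higher and 14.2% lower. With 15 libraries Zfas1 (0.29 ± 0.07, adjusted p = 0.00032) and Snhg5 (0.37 ± 0.07, adjusted p = 6.15e-05) were called higher and Snhg3 and Snhg4 lower, where 23.3% were higher and 24.9% lower. After this siRNA Zfas1 had 84.6, 83.5 and 79.2 CPM at the ER, against 66.3, 64.7 and, in the replicate that stood apart, 49.3 CPM in whole-cell RNA. Gas5, Snhg1, Snhg6, Snhg8, Snhg12 and Epb41l4aos were not called after either knockdown with 15 libraries, and their fold changes ran from -0.14 for Snhg8 to 0.19 for Epb41l4aos, both after Gnl3 siRNA.

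Whether a knockdown moved the ER to whole-cell ratio away from that after scramble siRNA was tested as an interaction. With edgeR, 0 of the 10 genes were called for Nmd3 or for Gnl3, with 17 or with 15 libraries, and 0.0% of all genes were called in each. In simulated counts with 1 common spread estimated from the 17 libraries, the Nmd3 interaction recovered 10.4% of true log2 changes of 1. The 0 calls with 17 libraries therefore do not show that changes of this size are absent. At an unadjusted p under 0.05 there were 4 host genes for Nmd3 and 0 for Gnl3 with 17 libraries, and 5 and 1 with 15. The share of all genes at this unadjusted threshold was not counted, so these counts are a description only. DESeq2 called 0 in both, where 0.0% of all genes were called. For Nmd3 the differences ran from -1.45 ± 0.65 for Epb41l4aos to -0.11 ± 0.37 for Snhg3 on the log2 scale with 17 libraries. Their median was -0.99 with 17 libraries and -0.22 with 15, against 0.01 over all genes in each. For Gnl3 they ran from -0.74 ± 0.60 for Gas5 to 0.33 ± 0.37 for Snhg3, with a median of -0.15, and of -0.11 with 15 libraries.

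On ER ribosomes, where no library stood apart, knockdown was compared with scramble directly. Snhg5 was called lower after both siRNAs, Zfas1 after Nmd3 siRNA and Snhg8 after Gnl3 siRNA, each by less than 0.5 on the log2 scale. None of these calls held with either scramble library left out. After Nmd3 siRNA 0 of 10 genes were called higher and 2 lower (Zfas1 and Snhg5), where 0.652% of 17632 genes were called higher and 0.516% lower. After Gnl3 siRNA 0 were called higher and 2 lower (Snhg5 and Snhg8), where 1.51% were higher and 1.17% lower. The fold changes were below 0 for 9 of 10 genes in each, all but Snhg3, with medians of -0.18 and -0.11 against 0.0022 and -0.0020 over all genes. The 2 comparisons share their 2 scramble libraries.

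Snhg5 had 161.2, 139.8 and 163.7 CPM after Nmd3 siRNA and 153.9, 157.7 and 155.4 CPM after Gnl3 siRNA, against 183.7 and 183.9 CPM after scramble. All knockdown libraries lay below both scramble libraries, though the share of all genes that separate in this way was not counted. The log2 fold changes of Snhg5 were -0.24 ± 0.05 for Nmd3 (adjusted p = 0.022) and -0.25 ± 0.05 for Gnl3 (adjusted p = 0.00834). Zfas1 had 78.0, 71.6 and 78.4 CPM after Nmd3 siRNA and 84.6, 83.5 and 79.2 CPM after Gnl3 siRNA, against 87.2 and 94.1 CPM. Its groups did not overlap either, with log2 fold changes of -0.25 ± 0.06 (adjusted p = 0.0397) and -0.15 ± 0.06 (adjusted p = 0.24). Snhg8 had 21.9, 20.0 and 19.3 CPM after Nmd3 siRNA and 18.1, 18.3 and 20.8 CPM after Gnl3 siRNA, against 26.2 and 23.3 CPM, again without overlap. Its log2 fold changes were -0.27 ± 0.10 (adjusted p = 0.244) and -0.39 ± 0.10 (adjusted p = 0.0285). With either scramble library left out, 0 of the 10 genes were called for Nmd3 and 0 for Gnl3, where 0.125% to 0.654% of all genes were called. With only the Nmd3 and scramble libraries in the fit, Snhg5 and Zfas1 were not called for Nmd3 either (adjusted p = 0.101 and 0.133). Snhg5 and Snhg8 were called for Gnl3 in the like fit. The 2 fits called 0.499% and 7.6% of all genes.

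Snhg1 also lay below scramble without overlap after both siRNAs, at 116.4, 105.8 and 123.0 CPM after Nmd3 siRNA and 119.0, 124.9 and 125.6 CPM after Gnl3 siRNA, against 129.5 and 132.9 CPM, but was not called (log2 fold changes -0.18 ± 0.06 and -0.10 ± 0.06, adjusted p = 0.133 and 0.438). Snhg3 had the opposite sign: its 6 knockdown libraries, at 15.7 to 17.9 CPM, lay above the scramble libraries at 14.3 and 15.2 CPM, with log2 fold changes of 0.14 ± 0.11 and 0.20 ± 0.11 (adjusted p = 0.678 and 0.408). Gas5 was closest to 0, at 87.0 to 107.7 CPM after Nmd3 siRNA and 94.3 to 101.4 CPM after Gnl3 siRNA, against 98.7 and 100.1 CPM (log2 fold changes -0.01 ± 0.07 and -0.02 ± 0.07, adjusted p = 0.966 and 0.936). Snhg4, Snhg6, Snhg12 and Epb41l4aos ran from -0.25 ± 0.18 (Snhg4, Nmd3) to -0.09 ± 0.07 (Epb41l4aos, Gnl3) and were not called. Between the knockdowns (Nmd3 over Gnl3) edgeR and DESeq2 each called 0 of 10, where edgeR called 2.19% of all genes, and 0 had an unadjusted p under 0.05. The values ran from -0.17 ± 0.16 for Snhg4 to 0.12 ± 0.09 for Snhg8.

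**Figure D5:**
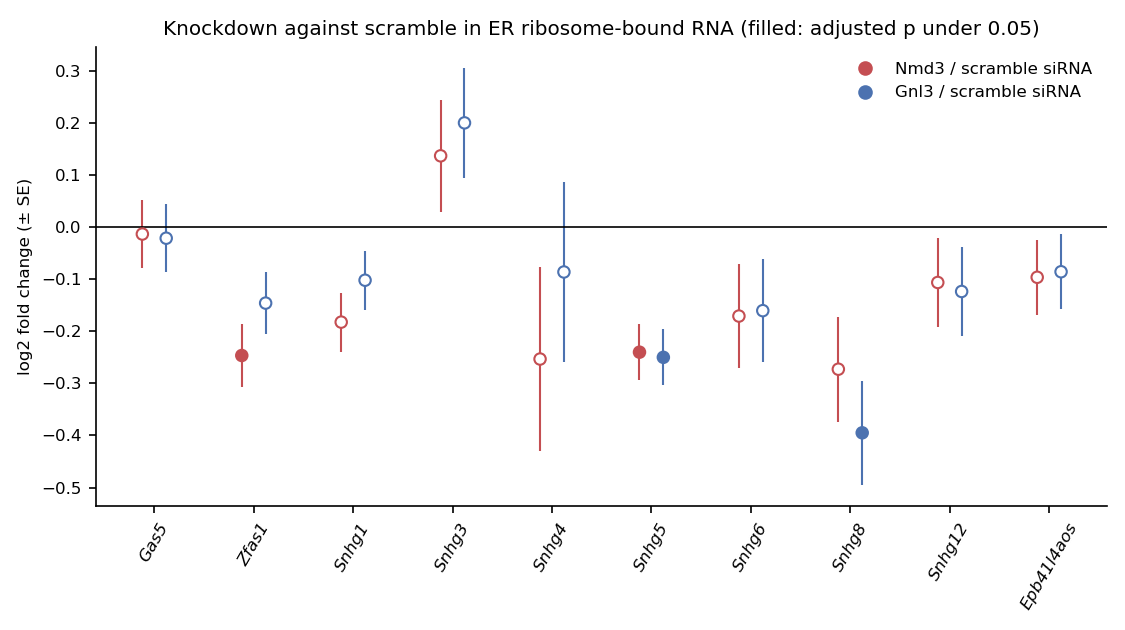
Log2 fold change (± SE) of each host gene on ER ribosomes after Nmd3 or Gnl3 siRNA over scramble siRNA. Filled points passed an adjusted p of 0.05 (Zfas1 and Snhg5 for Nmd3, Snhg5 and Snhg8 for Gnl3), and Snhg3 is the only gene above 0.

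Related lists were read in the same comparisons. After Nmd3 siRNA 1 of 12 other noncoding hosts was lower on ER ribosomes (Meg3, -0.38 ± 0.09, adjusted p = 0.0292), 1 of 51 protein-coding hosts (Rpl13a, -0.16 ± 0.04, adjusted p = 0.0417) and 2 of 79 ribosomal protein genes. After Gnl3 siRNA 1 other noncoding host was lower (Snhg16, -0.30 ± 0.08, adjusted p = 0.0321), 2 protein-coding hosts (Rps12 and Rpl13a) and 7 ribosomal protein genes. The protein-coding hosts called after either siRNA are ribosomal protein genes and are counted in both lists. The medians of the ribosomal protein genes were -0.07 and -0.10, beside -0.18 and -0.11 for the 10 host genes. Of the pluripotent stem cell markers, 4 of 10 were lower on ER ribosomes after Gnl3 siRNA and 0 after Nmd3 siRNA, and their part in the host gene values was not tested.

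In whole-cell RNA, 0 host genes were called in any comparison, and the means of the Nmd3 group rested on 1 library. Nmd3 whole-cell replicate 2 held 2.35 times the mean summed level of the 10 genes in the other Nmd3 whole-cell libraries, at 1360 CPM against 578.2. Gas5 stood at 98.1, 229.1 and 85.6 CPM after Nmd3 siRNA, against 84.5, 84.4 and 77.8 CPM after scramble, with replicate 2 the high one and no overlap between the groups. Epb41l4aos stood at 52.3, 146.6 and 37.1 CPM, against 38.7, 39.5 and 33.8 CPM, and Zfas1 at 75.4, 195.5 and 65.3 CPM, against 69.1, 68.2 and 66.4 CPM. Replicate 2 was 3.28 times the mean of the other Nmd3 libraries for Epb41l4aos and 2.78 times for Zfas1, the range over the 10 genes being 1.32 (Snhg4) to 3.28. The summed level of cytosolic ribosomal protein genes was 2.18 times that of the other Nmd3 libraries in the same replicate. The part of that library's state in these values was not tested.

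For Nmd3 against scramble siRNA in whole-cell RNA, all 10 fold changes were above 0, from 0.26 ± 0.32 for Snhg3 to 1.38 ± 0.56 for Epb41l4aos on the log2 scale (adjusted p = 0.861 and 0.852). edgeR and DESeq2 called 0 of 10, 1 gene had an unadjusted p under 0.05, and 0.0% of 17310 genes were called. The share of all genes at an unadjusted p under 0.05 was not counted, here or below, and the percentages are at an adjusted p under 0.05. In simulated counts with 1 common spread estimated from these libraries, this comparison recovered 15.5% of true log2 changes of 1. The 0 calls therefore do not show that changes of this size are absent. Without the 2 libraries that stood apart the median of the 10 genes was 0.03 in place of 0.80, 7 of 10 were above 0, 0 were called, 0 had an unadjusted p under 0.05, and 0.166% of 17490 genes were called. For Gnl3 against scramble siRNA the values ran from -0.24 ± 0.56 for Epb41l4aos to 0.74 ± 0.52 for Gas5. edgeR and DESeq2 called 0, 0 had an unadjusted p under 0.05, and 0.0% of all genes were called. Gas5 stood at 101.5, 83.6 and 203.3 CPM after Gnl3 siRNA. The high value belongs to the library set apart above, in which Epb41l4aos stood at 18.4 CPM, 0.497 times the mean of the other Gnl3 libraries. Without the 2 libraries 0 were called, 1 had an unadjusted p under 0.05 (Gas5, 0.17 ± 0.08), and 0.812% of all genes were called. Nmd3 over Gnl3 in whole-cell RNA gave 0.28 ± 0.52 (Gas5) to 1.62 ± 0.57 (Epb41l4aos), with 0 called by either tool, 3 at an unadjusted p under 0.05 and 0.0% of all genes called. Without the 2 libraries 0 were called, 1 had an unadjusted p under 0.05, and 0.212% of all genes were called.

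In these polyA-selected libraries the snoRNA genes inside the hosts gave few counts. Of 35 annotated snoRNA genes inside the 10 hosts, 30 were in the count files and 25 of those were at 0 in all 17 libraries. The 2 guides inside Snhg3 had the most counts. Snora73a had 0 to 2 counts per library on ER ribosomes (3 in all) and 18 to 57 in whole-cell RNA (383 in all). Snora73b had 2 to 14 counts on ER ribosomes (47 in all) and 6 to 108 in whole-cell RNA (487 in all). The groups of Snora73a did not overlap between fractions, while those of Snora73b did, through the 6 counts of Gnl3 whole-cell replicate 3. The 3 others with any count were Gm23201 inside Zfas1 (6 counts on ER ribosomes and 60 in whole-cell RNA), Gm23639 inside Epb41l4aos (4 and 16) and Snord87 inside Snhg6 (0 and 2). Where a snoRNA gene shares exonic bases with its host, reads in both can be left uncounted, and 27 of the 30 did share bases. All 25 genes at 0 were among these 27, while the 3 that shared none, Snora73b, Gm23639 and Snord87, each had counts. The part of shared bases and of polyA selection in the few counts was not tested.

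Across the 17 libraries the host genes followed their common mean to different degrees. The Pearson r of a gene's log2 CPM with the mean of the 10 standardized genes was highest for Snhg1 (0.97) and Snhg8 (0.944) and lowest for Snhg3 (0.678) and Snhg4 (0.471). Each gene is itself part of that mean. Among 9722 other genes of at least 10 CPM, the 5 most like the mean were Rpl7 (r = 0.986), Katna1 (0.982), Asnsd1 (0.981), Tardbp (0.979) and Ppa1 (0.978). Over the 15 libraries without those that stood apart, Snhg3 and Snhg4 ran against the mean, at -0.526 and -0.369, and the 5 most like genes were Rbx1 (0.842), Sub1 (0.841), 1110038B12Rik (0.839), Gfod2 (0.83) and Snhg15 (0.823). These correlations describe libraries that share fractions, cultures and depth, and carry no test.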

How the data were processed

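The authors deposited read counts per gene for 17 libraries, whole numbers with no normalization. Per the submitters' processing notes, STAR 2.7.9a, HTSeq 0.11.2, DESeq2 and the build GRCm39 were used; the annotation release and the strand setting are not given in the sources used here. Gene counts came to 15.2 to 29.9 M per library. The 5 lines that name no gene were left out; unassigned reads without a feature came to 46.6% to 48.3% of all reads in a file, ambiguous reads to 0.357% to 0.568% and multiply aligned reads to 5.11% to 10.2%. Of 55416 identifiers, 52135 had a symbol; 9 of the 10 genes matched by GENCODE M21 name and Snhg4 by its RefSeq transcript. Sequences and gene models are of GRCm38, so none of the deposited values was joined by coordinate.

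Counts were fitted with edgeR 4.0.16 in R 4.3.3 (filterByExpr, TMM scaling, robust quasi-likelihood test), with Benjamini-Hochberg adjustment over all genes tested and a threshold of 0.05. ER against whole-cell RNA and its interaction with siRNA used all 17 libraries, and knockdowns were compared within a fraction. CPM values are counts per M gene counts. DESeq2 1.42.0, library totals, no filter, fits of the compared groups only, a replicate block and leaving out libraries were alternatives. The labels call the libraries biological replicates. ER and whole-cell RNA of a replicate come from the same lysate, which pairs them by design. The main fits did not use this pairing, and the fits with cultures as blocks did. The residual correlation of the pairs was -0.079 to 0.016. For the Nmd3 and Gnl3 pairs it was taken from group means that hold a library that stood apart, so it cannot show whether those pairs vary together. The scramble pairs, whose groups hold neither such library, had values of 0.011 and 0.0025. Both rest on the single difference between the ER scramble libraries, too little to show whether pairs vary together. Within a fraction the residual correlations of same-numbered libraries ran from -0.089 to 0.17. The fits were tested on simulated counts with known changes. Every gene and library was drawn with the 1 common spread of its fit, so no simulated library stood apart. Recovery in the data can differ from that in the simulation. Of true log2 changes of 1, they recovered 30.2% between fractions after scramble siRNA and 93.8% for Nmd3 against scramble on ER ribosomes. They recovered 15.5% for Nmd3 against scramble in whole-cell RNA and 10.4% for the Nmd3 interaction. For true log2 changes of 2 the values were 90%, 96%, 85.7% and 59.8%. False calls made up 2.86% to 7.03% of all calls.

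The members, the lists and the 2 libraries left out were chosen with earlier results of these data known. All 10 genes are named; of the other lists, at most the 3 genes with the largest fold change among those called are named with values. Likeness was Pearson's r of log2 CPM, for genes of at least 10 CPM. Context lists held other noncoding and protein-coding snoRNA hosts, NMD factors, exon junction complex genes, NMD-sensitive mRNAs, snoRNP proteins, ribosomal proteins, nuclear-retained RNAs and markers of 3 cell types.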

Additional observations from a re-analysis of the deposited data

How the results depend on the processing

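Read against other settings, counts of host genes called are followed in brackets by the share of all genes called in the same fit. For ER against whole-cell RNA after scramble siRNA, 1 of the 10 host genes was called (12.7%). The number became 2 with library totals (9.47%), with no filter (5.4%) and with DESeq2 (17.3%). It was 9 with only the groups compared (57.0%) and 8 without both libraries that stood apart (50.3%). With 1 library left out it was 0 without ER scramble replicate 2 (2.76%) and 1 otherwise (3.42% to 8.38%). After Nmd3 siRNA the count of 2 (15.2%) became 1 with only the groups compared (4.32%). It was 3 with DESeq2 (19.2%) and without both libraries (50.1%), and 1 to 7 with 1 library left out. The counts of 6 and 7 came without whole-cell Nmd3 replicate 1 (11.3%) and replicate 3 (14.5%). These 2 fits keep the Nmd3 replicate that stood apart. The other counts were 1 or 2 (9.67% to 29.4%). After Gnl3 siRNA the count of 1 (24.5%) became 4 without both (48.1%). On ER ribosomes, the 2 calls for Nmd3 (1.17%) became 0 with only the groups compared (0.499%). With 1 library left out they became 0 without either scramble library (0.136% and 0.125%) and 2 or 3 otherwise (1.2% to 2.09%). The 2 calls for Gnl3 (2.68%) became 0 without either scramble library (0.381% and 0.654%) or without Gnl3 replicate 1 (1.2%). They were 1 without Gnl3 replicate 2 (1.71%) and 2 without Gnl3 replicate 3 (1.44%). The cause was not tested.

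With the replicate block, these counts were 0, 1 and 1 for ER against whole-cell RNA after scramble, Nmd3 and Gnl3 siRNA, and 0 and 1 for Nmd3 and Gnl3 on ER ribosomes. With the block and without both libraries they were 9, 4 and 4 for the fractions, where 47.3%, 46.8% and 46.0% of all genes were called. The block called 2.08%, 7.13% and 16.1% of all genes between fractions with 17 libraries, and 0.715% and 1.46% for Nmd3 and Gnl3 on ER ribosomes.

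Signs turned mostly in results that use whole-cell RNA. For ER against whole-cell RNA after Nmd3 siRNA, Gas5, Zfas1, Snhg1, Snhg5 and Snhg12 were at 0.086, 0.11, 0.11, 0.22 and 0.088 without both libraries, and at 0.16, 0.14, 0.17, 0.28 and 0.14 with the replicate block as well. After Gnl3 siRNA, Gas5, Snhg6, Snhg8 and Snhg12 were at 0.053, 0.079, -0.14 and -0.030 without both, and at 0.039, 0.043, -0.20 and -0.086 with the block as well; Snhg8 was at -0.0073 with only the groups compared and at -0.0053 with DESeq2. The Nmd3 interaction of Snhg3 was 0.084 with library totals, 0.0039 with the block, 0.35 without both and 0.33 with both changes. In whole-cell RNA, Snhg3 (Nmd3 against scramble) was at -0.21 without both and -0.20 with the block as well, and Gas5 (Nmd3 against Gnl3) at -0.019 without both.

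Leaving out 1 library gave, after Nmd3 siRNA between fractions, -1.07 to 0.073 for Gas5, -1.18 to 0.092 for Zfas1, -1.07 to 0.10 for Snhg1, -0.77 to 0.20 for Snhg5 and -0.53 to 0.077 for Snhg12. After Gnl3 siRNA it gave -0.75 to 0.071 for Gas5, -0.043 to 0.10 for Snhg1, -0.36 to 0.10 for Snhg6, -0.12 to 0.12 for Snhg8 and -0.012 to 0.28 for Snhg12. It gave -0.0097 to 0.25 for Snhg6 after scramble siRNA and -0.34 to 0.35 for the Nmd3 interaction of Snhg3. On ER ribosomes it gave -0.079 to 0.057 (Gas5) and -0.22 to 0.0077 (Snhg12) for Nmd3, -0.041 to 0.012 (Gas5) and -0.21 to 0.012 (Snhg4) for Gnl3, and -0.34 to 0.026 (Snhg4) for Nmd3 against Gnl3. In whole-cell RNA it gave -0.21 to 0.50 for Snhg3 (Nmd3 against scramble) and -0.58 to 0.84 for Gas5 (Nmd3 against Gnl3).

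Library totals in place of TMM moved the share of all called genes that were higher on ER ribosomes to 52.8%, against 40.5%, after scramble siRNA, to 70.4%, against 50.7%, after Nmd3 siRNA and to 53.7%, against 42.1%, after Gnl3 siRNA. For Nmd3 against Gnl3 on ER ribosomes the share was 34.8%, against 45%. The median of all genes after Nmd3 siRNA was then 0.05 in place of -0.11 between fractions, and -0.13 in place of -0.0031 against scramble in whole-cell RNA, where the host gene medians were -0.53 in place of -0.81 and 0.53 in place of 0.80.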
